A study of Drosophila melanogaster with 8 samples.

Results

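The translation initiation, elongation and release factors of adult *Drosophila* brains were taken as every feature of the gene count table whose symbol begins with eIF, eEF or eRF. That rule found 53 of 23932 features, and 44 of them passed the filter on low counts. In adult brains of EmcOE flies, 4 of the 44 were downregulated and 1 was upregulated. The downregulated genes were *eEF1beta*, which fell by 27.5%, and 3 subunits of the initiation complex eIF3, *eIF3k*, *eIF3l* and *eIF3m*, which fell by 17.9%, 16.8% and 16.2%. The upregulated gene was *eIF4G2*, a variant of the initiation scaffold, which rose by 20.1%.

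RNA was sequenced from brains of flies 0 to 1 day old, with males and females pooled in each sample, and every group had 4 samples. EmcOE flies carried the pan-neuronal driver elavC155-Gal4 and UAS-emc, a transgene for the helix-loop-helix inhibitor Emc. Control flies came from a cross of the same driver to the white* line and carried no UAS-emc, so that both groups had Gal4 and differed also in the line crossed to it. The comparison asked which brain transcripts change when the transcription factor Da is held back by its partner Emc. The driver is active in neurons from embryonic stages, whereas the RNA came from whole brains with glia and all other cells. *emc* itself had normalized counts of 4951, 4786, 5165 and 4961 in Control and 6038, 6289, 5874 and 6020.2 in EmcOE (log2 fold change 0.29, edgeR's quasi-likelihood adjusted p = 0.00246), and *da* was at 0.00 (adjusted p = 0.977).

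Translation begins when the small ribosomal subunit, loaded with the initiator tRNA by eIF2 and held open by eIF1, eIF1A and eIF3, is brought to the capped end of an mRNA by eIF4E, eIF4G and the helicase eIF4A. Once the start codon is found, eIF5 and eIF5B let the large subunit join. Elongation is then driven by eEF1alpha, which delivers tRNAs, its exchange factors eEF1beta, eEF1gamma and eEF1delta, and the translocase eEF2, until eRF1 and eRF3 release the finished chain. Neurons use the same factors in the cell body and near synapses, where local protein synthesis takes part in memory formation.

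Each sample had between 20751513 and 41619980 counted read pairs. The deepest was EmcOE 1, and the other 7 lay at or below 22776791. The 53 genes took 0.896 to 0.928% of all counts in Control and 0.826 to 0.951% in EmcOE. Levels are given below as normalized counts, meaning read pairs scaled to a common library size with edgeR's TMM factors, or as RPKM, which divides such counts by exon length and can be compared between genes. A gene was tested when its mean normalized count was at least 20 in a group. Calls of up- or downregulation required a Benjamini-Hochberg adjusted p of 0.05 or less, over 9788 tested features, together with a log2 fold change of 0.2 or more in size. Sample numbers are those of the labels, and the main fit did not pair the samples by them. Whether samples of the same number were prepared together is not known from the labels. Separate dissections are not described in the labels, so the p-values measure the spread between these samples.

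Downregulation was called for 4 of the 44 translation factors (9.09%), against 5.12% of all features tested. For upregulation the share was 1 of 44 (2.27%), against 3.57% of all features. Both directions together gave 5 genes, against 8.68% of all features. An adjusted p of at most 0.05, whatever the fold, was reached by 7 translation factors (15.9%), against 9.33% of all features. At an unadjusted p under 0.05 there were 14 (31.8%), against 25.5% of all features. All 4 EmcOE samples lay below all 4 Control samples for 7 genes (15.9%, against 7.86% of all features) and above them for 3 genes (6.82%, against 8.51%). The log2 fold changes ran from -0.46 to 0.35 with a median of -0.06, and the median over all features was 0.01. The upper end was *eIF5*, whose counts do not measure its level, as described below. The next highest was *eIF4G2* at 0.26. In all, 27 translation factors were lower (61.4%, against 47% of all features) and 17 were higher in EmcOE. In bulk brain RNA, fewer cells of a type and less RNA per cell cannot be told apart.

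**Figure D1:**
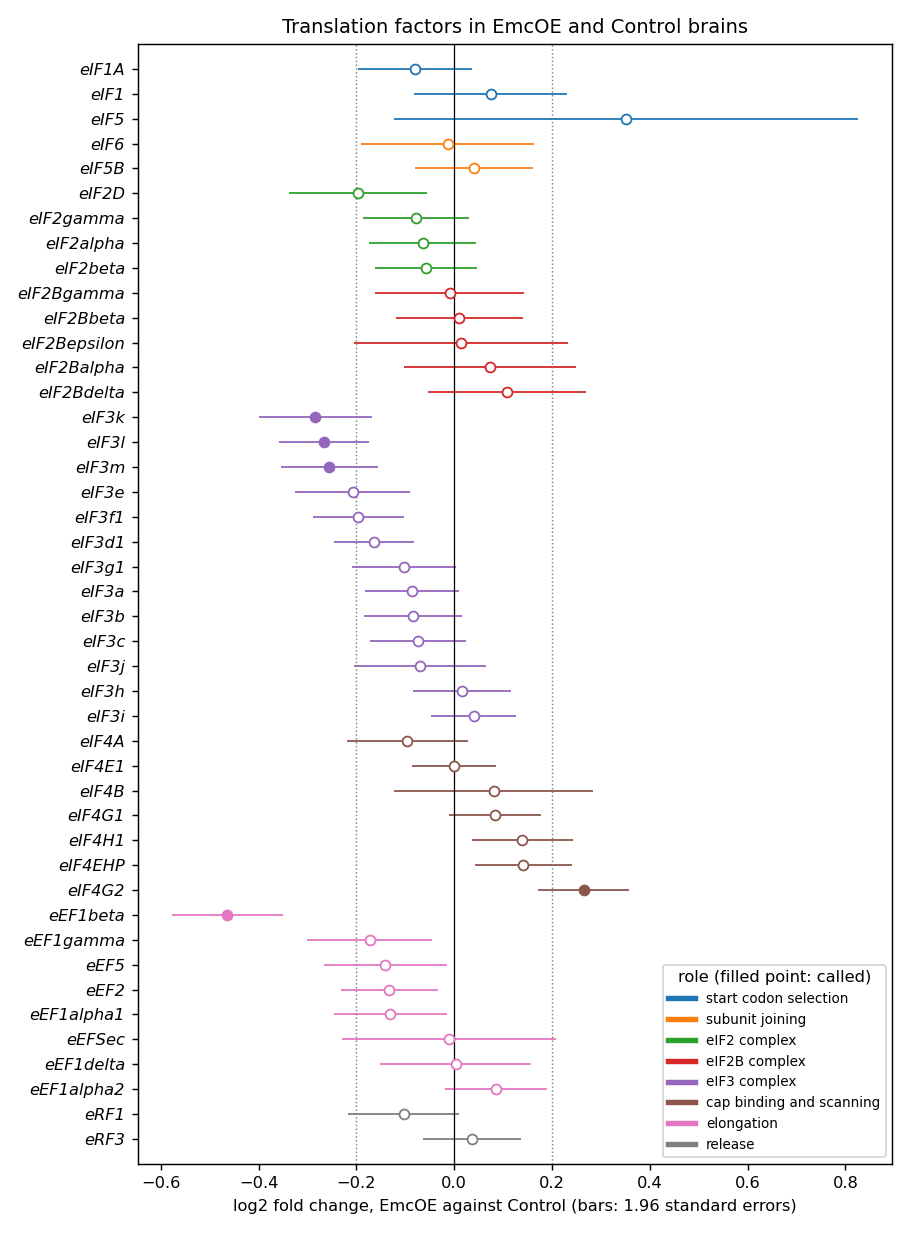
Log2 fold change of the 44 tested translation factors, EmcOE against Control, ordered by role (horizontal axis: log2 fold change, bars: 95% intervals, filled points: called, dotted lines: the fold limit of 0.2). The 3 filled points among the eIF3 subunits and eEF1beta lie left of -0.2, and eIF4G2 is the filled point on the right.

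The largest called change was that of *eEF1beta* (FBgn0028737, chromosome 2R, 16868222 to 16869280, BDGP6.32), which recharges eEF1alpha with GTP. Its normalized counts were 2739, 3038, 2767 and 3108 in Control and 2144, 2051, 1999.9 and 2251 in EmcOE. The 4 EmcOE samples all lay well below the lowest Control sample. The log2 fold change was -0.46 ± 0.058 (SE, n = 4 per group), with an adjusted p of 0.000775 by edgeR's quasi-likelihood test. *eEF1beta* was called under all 19 alternative settings, and it ran between -0.50 and -0.43 when each sample was left out in turn.

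The other subunits of the exchange complex were not called. *eEF1gamma*, its scaffold, had 6782, 6802, 6109 and 7494 normalized counts in Control and 5971, 5666, 5999 and 6482 in EmcOE. The groups overlapped, and the log2 fold change was -0.17 (95% interval -0.30 to -0.04, adjusted p = 0.126 by edgeR). *eEF1delta*, a further exchange subunit, had a mean of 1075 ± 39.1 in Control and 1075 ± 123 in EmcOE (SD, n = 4). Its interval ran from -0.15 to 0.16, which does not reach the change of *eEF1beta*.

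*eEF2*, the GTPase that moves the ribosome along by a codon, had 38819, 39619.9, 39032 and 40262 normalized counts in Control and 33677, 35635, 36658 and 37925 in EmcOE. All EmcOE samples were lower than all Control samples, but the difference did not pass edgeR's test (log2 fold change -0.13, 95% interval -0.23 to -0.03, edgeR adjusted p = 0.128). It did pass the adjusted p with DESeq2 (-0.14, DESeq2 adjusted p = 0.0299). The size of the change stayed under the fold limit, and *eEF2* was called under 0 of the 19 alternative settings. *eEF5*, the fly counterpart of eIF5A, which relieves ribosomes stalled at prolines, had 5909, 6113, 6498 and 6397 in Control and 6289, 5347, 5186 and 5769 in EmcOE. EmcOE 1 lay within the Control samples, and the other EmcOE samples lay below them (-0.14, edgeR adjusted p = 0.199). *eEFSec*, which delivers selenocysteine, was at -0.01. Over the 8 elongation factors, 6 were lower (75%, against 47% of all features) and 1 was called, downregulated (12.5%, against 5.12% of all features). The median log2 fold change was -0.13.

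The fly has 2 genes for eEF1alpha, the tRNA carrier. *eEF1alpha1* had 32633, 33912, 32119 and 36397 normalized counts in Control and 31994, 28696, 30427 and 32242 in EmcOE (log2 fold change -0.13, edgeR adjusted p = 0.194). *eEF1alpha2* had 17986, 17026, 17749.6 and 17977 in Control and 18559, 17747, 20440.5 and 18301 in EmcOE (0.09, edgeR adjusted p = 0.352). Both genes overlapped between the groups and neither was called. Per exon length, *eEF1alpha2* supplied 33.8, 31.8, 33.9 and 31.4% of the pair in Control and 34.99, 36.5, 38.4 and 34.5% in EmcOE, which is 32.7 ± 1.31% against 36.1 ± 1.75% (SD, n = 4). These shares did not overlap between the groups. The shares were not tested.

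The eIF3 complex, the largest initiation factor, had 16 genes in the table, of which 13 were tested. Of these, 3 were downregulated (23.1%, against 5.12% of all features), 0 were upregulated (against 3.57%), and 11 were lower in EmcOE (84.6%, against 47%). An adjusted p of at most 0.05 was reached by 5 (38.5%, against 9.33%). The median log2 fold change was -0.10.

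*eIF3l* (FBgn0036258, chromosome 3L, 12143446 to 12146097) had normalized counts of 4981, 5158, 5469.8 and 5316 in Control and 4224, 4358, 4576 and 4244 in EmcOE. The highest EmcOE sample stayed under the lowest Control sample. The log2 fold change was -0.27 ± 0.047 (SE), with an edgeR adjusted p of 0.00608. *eIF3k* (FBgn0034654, chromosome 2R, 21685283 to 21686201), whose protein pairs with eIF3l at the edge of the complex in mammals, had 1311, 1359, 1330.4 and 1472 in Control and 1198, 1089.5, 1150.1 and 1052 in EmcOE. The groups did not overlap (-0.28 ± 0.059, edgeR adjusted p = 0.0140).

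*eIF3m* (FBgn0033902, chromosome 2R, 14163066 to 14164825), a scaffold subunit, had 2420.1, 2513, 2654 and 2717 normalized counts in Control and 2100.2, 2114, 2283 and 2135 in EmcOE. Here too every EmcOE sample was below every Control sample (-0.26 ± 0.050, edgeR adjusted p = 0.0112). *eIF3k*, *eIF3l* and *eIF3m* were called under 18 of 19 alternative settings. All 3 missed the adjusted p with libraries scaled by their total counts alone (log2 fold changes of -0.21, -0.20 and -0.19, edgeR adjusted p = 0.115, 0.0915 and 0.117).

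In *eIF3f1* and *eIF3d1* the adjusted p was passed and the fold limit was not. *eIF3f1* had 3101, 3308, 3419 and 3395 in Control and 2864, 3000.0, 2748 and 2928 in EmcOE (log2 fold change -0.196, short of the limit, edgeR adjusted p = 0.0280). *eIF3d1*, whose mammalian counterpart can itself bind the cap of some mRNAs, had 2293, 2291, 2186 and 2321 in Control and 1971, 1996, 2065 and 2086 in EmcOE (-0.16, edgeR adjusted p = 0.0345). Neither gene overlapped between the groups. *eIF3f1* missed the adjusted p without Control 2, 3 or 4 or EmcOE 3 or 4 (edgeR adjusted p = 0.0520 to 0.0725), and *eIF3d1* missed it without Control 1, 2 or 4 or EmcOE 1 or 2 (0.0553 to 0.0898). With total counts alone they were at -0.13 and -0.10. *eIF3e*, a further subunit, had 2296, 2452, 2674 and 2545 in Control and 2027, 2235, 2073 and 2300.3 in EmcOE. Its groups met at 1 sample each, EmcOE 4 and Control 1, and it missed the adjusted p (-0.21, edgeR adjusted p = 0.0560). *eIF3f1* was called under 8 and *eIF3e* under 7 of the 19 alternative settings, DESeq2 among them (-0.20 and -0.21, DESeq2 adjusted p = 0.00552 and 0.0199).

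**Figure D2:**
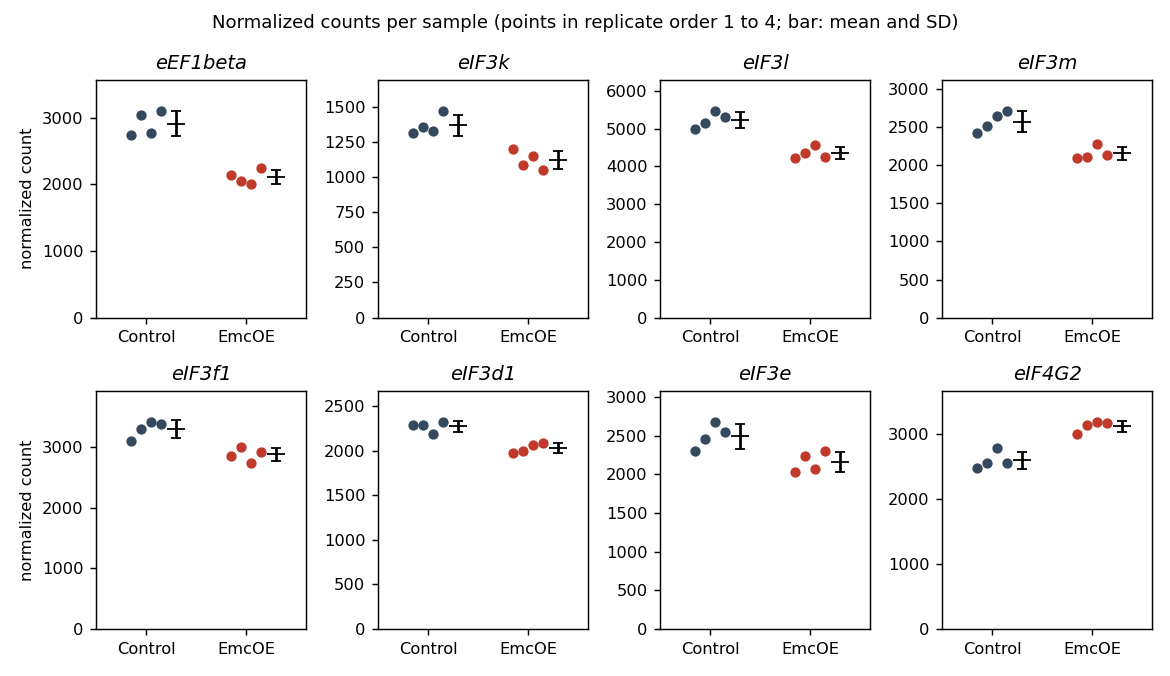
Normalized count of 8 translation factors in each sample (vertical axes from 0, points: samples 1 to 4 of Control and EmcOE, bars: mean and SD). EmcOE samples lie below Control samples for eEF1beta, eIF3k, eIF3l, eIF3m, eIF3f1 and eIF3d1, overlap them for eIF3e, and lie above them for eIF4G2.

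Budding yeast has a smaller eIF3, and the subunits were therefore also described by whether they have a counterpart there, a grouping made after their values were seen. Without such a counterpart were *eIF3d1*, *eIF3e*, *eIF3f1*, *eIF3h*, *eIF3k*, *eIF3l* and *eIF3m*. In these 7 the median log2 fold change was -0.21 and the range was -0.28 to 0.02. An adjusted p of at most 0.05 was reached by 5 of the 7, against 9.33% of all features. Of these 5, *eIF3f1* and *eIF3d1* both missed it without Control 2 or without Control 4. The 6 subunits with a counterpart (*eIF3a*, *eIF3b*, *eIF3c*, *eIF3g1*, *eIF3i* and *eIF3j*) had a median of -0.08, a range of -0.10 to 0.04, and 0 with such an adjusted p. The difference between these groups was not tested. *eIF3g1*, an RNA-binding subunit, had 1894, 1926, 2056 and 2182 normalized counts in Control and 1825, 1821, 1961 and 1899 in EmcOE, with overlapping groups (-0.10, edgeR adjusted p = 0.271). *eIF3h*, with no yeast counterpart, was at 0.02 (95% interval -0.08 to 0.12). Exons of the gene *senju* cover 16.8% of those of *eIF3h*.

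Of the cap-binding and scanning factors, 7 of 13 were tested, and 1 was upregulated (14.3%, against 3.57% of all features). In EmcOE 5 were higher and 2 were lower (28.6% lower, against 47% of all features). The median log2 fold change was 0.08. *eIF4G2* (FBgn0260634, chromosome 3R, 23808285 to 23819237), a variant eIF4G known in the fly from male meiosis, had normalized counts of 2482, 2562, 2786 and 2564 in Control and 2999, 3138, 3187 and 3167 in EmcOE. The lowest EmcOE sample exceeded the highest Control sample. The log2 fold change was 0.26 ± 0.047 (SE), with an edgeR adjusted p of 0.00660. A correction for gene length lowered it to 0.17, under the fold limit (edgeR adjusted p = 0.0262), and it was called under the other 18 settings. The exons of *CG33111* cover 8.56% of its exon length.

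*eIF4G1*, the main scaffold between the cap and the ribosome, had 7879.7, 8145, 8248 and 7773 normalized counts in Control and 7935, 8451, 8790.3 and 8774 in EmcOE. The groups overlapped (log2 fold change 0.08, 95% interval -0.01 to 0.18, edgeR adjusted p = 0.311). It was at 0.01 with the gene length correction and 0.15 with total counts. Per exon length, *eIF4G2* was the minor form, at 18.5, 18.5, 19.6 and 19.2% of the pair in Control and 21.4, 21.1, 20.7 and 20.7% in EmcOE. The mean share was 19.0 ± 0.54% against 21.0 ± 0.36% (SD, n = 4), without overlap and with no test.

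*eIF4EHP* binds the cap without binding eIF4G and is a translational repressor in the embryo. It had 6517, 5905, 6591 and 6379 normalized counts in Control and 7408, 6981, 6735 and 6867 in EmcOE. All EmcOE samples were higher, but the adjusted p was 0.111 by edgeR (log2 fold change 0.14, 95% interval 0.04 to 0.24). The gene length correction moved it to 0.08. The neighbouring *Syx1A*, a synaptic SNARE gene whose exons cover 6.96% of those of *eIF4EHP*, was upregulated (0.25, edgeR adjusted p = 0.0279). Read pairs in the exons shared by both genes are not counted for either gene. Any further part of *Syx1A* in the *eIF4EHP* counts was not tested.

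The canonical cap-binding protein gene *eIF4E1* had 5679.7, 5656, 5556 and 5337 normalized counts in Control and 5825, 5551, 5508 and 5338 in EmcOE. The means, 5557 and 5556, were nearly equal, and the interval of the log2 fold change ran from -0.09 to 0.09. Within the eIF4E family, *eIF4EHP* took 28.3, 26.5, 29.0 and 29.3% per exon length in Control and 30.4, 30.2, 29.5 and 30.7% in EmcOE (28.3 ± 1.23% against 30.2 ± 0.51%). The shares did not overlap, and Control 4 and EmcOE 3 lay closest. They were not tested and were computed without the gene length correction. With that correction the log2 fold change was 0.08 for *eIF4EHP* and 0.02 for *eIF4E1*. *eIF4E1* took 71.1 ± 1.29% in Control and 68.9 ± 0.34% in EmcOE.

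**Figure D3:**
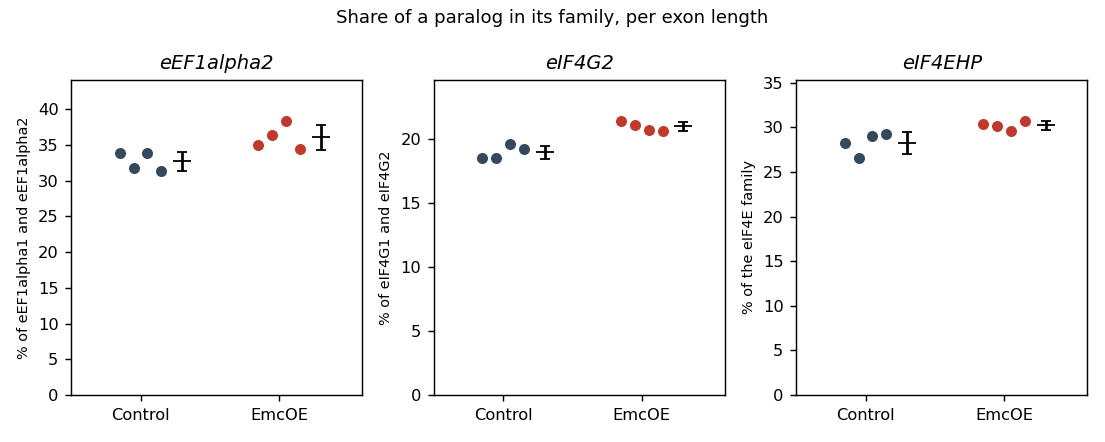
Share of eEF1alpha2, eIF4G2 and eIF4EHP in their paralog families per exon length (vertical axes: percent, from 0, points: samples 1 to 4 of each group, bars: mean and SD). In each panel all EmcOE samples lie above all Control samples: 36.1 against 32.7%, 21.0 against 19.0% and 30.2 against 28.3% on average. The gene length correction was not applied to these shares.

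*eIF4H1*, an RNA-binding helper of the helicase eIF4A, had 3017, 2991, 2804 and 2988 normalized counts in Control and 3489, 3145, 3326 and 3031 in EmcOE. The EmcOE samples were all higher, EmcOE 4 only slightly so, and the adjusted p was 0.124 by edgeR (log2 fold change 0.14). *eIF4A* itself had 28248, 29265, 32304 and 30472 in Control and 28656, 29753, 25443 and 28709 in EmcOE, with overlapping groups (-0.10, edgeR adjusted p = 0.376). *eIF4B*, another helper of *eIF4A*, was at 0.08 (edgeR adjusted p = 0.671).

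The eIF2 subunits, which carry the initiator tRNA, were all slightly lower and none was called. Over all features, 47% were lower and 8.68% were called. Their log2 fold changes were -0.06 for *eIF2alpha*, -0.06 for *eIF2beta* and -0.08 for *eIF2gamma*. *eIF2D*, a separate protein linked to reinitiation and ribosome recycling, had normalized counts of 435, 449.6, 419 and 451 in Control and 377, 380.2, 421 and 353 in EmcOE. EmcOE 3 lay just above the lowest Control sample, and the adjusted p was 0.116 by edgeR (-0.20). Of the 5 subunits of eIF2B, the exchange factor that recharges eIF2, 4 were higher and 1 was lower (20%, against 47% of all features). Of these 5, 0 were called (against 8.68% of all features), and the median was 0.01. *eIF2Bdelta* had 519.9, 467, 452 and 436 in Control and 476, 476, 504 and 566 in EmcOE (0.11, edgeR adjusted p = 0.449).

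The start-codon factors *eIF1* and *eIF1A* were at 0.07 and -0.08, the joining GTPase *eIF5B* was at 0.04, and *eIF6*, which keeps the large subunit apart, was at -0.01. Of the release factors, *eRF1*, which reads stop codons, was at -0.10 (edgeR adjusted p = 0.296), and its GTPase partner *eRF3* was at 0.04. None of these 6 genes was called (against 8.68% of all features). *eIF5*, the GTPase activator of eIF2, had the largest positive log2 fold change, 0.35 ± 0.24 (SE), from very low counts: 24.3, 37.1, 38.88 and 46.4 in Control and 36.2, 46.3, 46.8 and 59.2 in EmcOE. The groups overlapped, and the adjusted p was 0.401 by edgeR. Exons of *CG46312* on the same strand cover 80.8% of the exon length of *eIF5*, and read pairs in shared exons are not counted for either gene, so the counts of *eIF5* do not measure its level. *CG46312* had 0 counts in all samples.

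Levels differed widely between roles. In Control brains *eEF1alpha1* had 564 ± 31.9 RPKM, *eEF2* 531 ± 8.72, *eIF4A* 499 ± 28.9, *eEF5* 318 ± 13.7 and *eEF1alpha2* 274 ± 7.01 (SD, n = 4). Among the first 3 of these, neighbours in the order overlapped within their SDs. The exchange subunits *eEF1gamma*, *eEF1beta* and *eEF1delta* followed at 165, 125 and 47.7 RPKM. The 13 tested eIF3 subunits lay within 2.53-fold of each other, from 46.5 RPKM for *eIF3d1* to 117 for *eIF3l*. Levels of eIF2B subunits were lower, from 7.53 RPKM for *eIF2Bepsilon* to 27.7 for *eIF2Bbeta*.

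**Figure D4:**
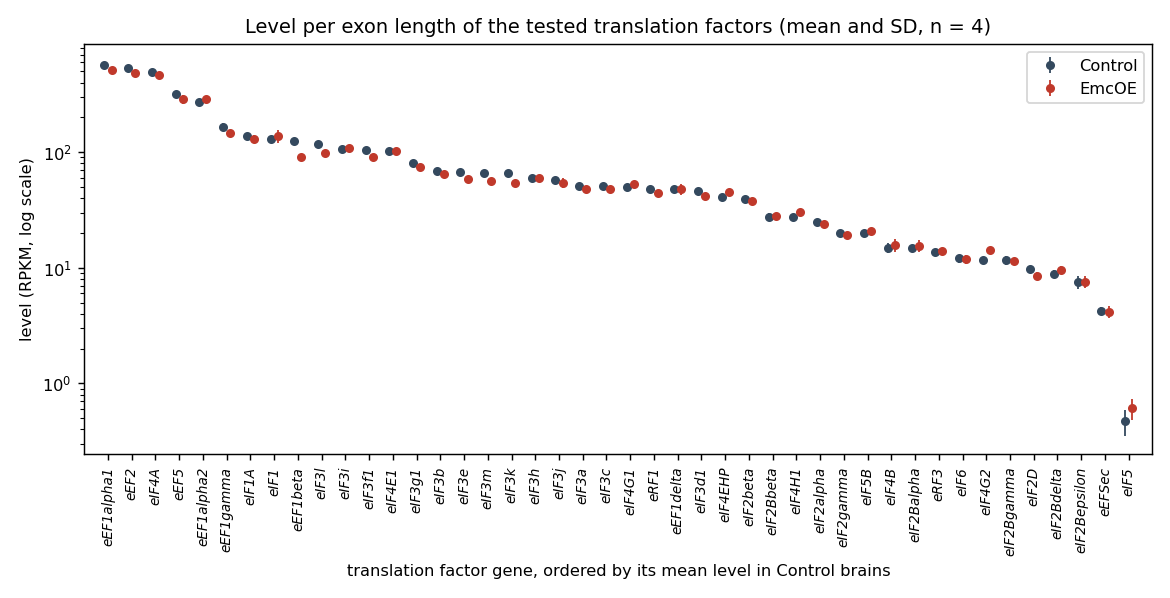
Level per exon length of the 44 tested translation factors in Control and EmcOE brains (vertical axis: RPKM on a log scale, points and bars: mean and SD over 4 samples, genes ordered by Control level). eEF1alpha1, eEF2, eIF4A, eEF5 and eEF1alpha2 lead the order, the eIF3 subunits lie between 46.5 and 117 RPKM in Control, and eEFSec and eIF5 are last. The counts of eIF5 do not measure its level.

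The 9 genes under the count filter were paralogs of tested factors, among them *eIF4E3*, known from male meiosis in the fly. These were *eIF3d2*, *eIF3f2*, *eIF3g2*, *eIF4E3*, *eIF4E4*, *eIF4E5*, *eIF4E6*, *eIF4E7* and *eIF4H2*. *eIF3g2* had 0 read pairs in all samples but EmcOE 1, which had 4. *eIF4E6*, the most abundant, had 13, 6, 9 and 8 read pairs in Control and 29, 10, 15 and 10 in EmcOE. *eIF4E5* had 2, 2, 3 and 0 in Control and 11, 7, 11 and 5 in EmcOE. The EmcOE samples were all higher for *eIF4E5*, and EmcOE 1 was the deepest library. In a fit with no count filter its log2 fold change was 1.88 ± 0.67 (SE) with an edgeR adjusted p of 0.135, and none of the 9 reached 0.05.

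Genes that act on these factors but lie outside the symbol rule were counted in a separate list, with 28 tested of 30. Of these, 1 was upregulated (3.57%, the same share as over all features) and 1 was downregulated (3.57%, against 5.12% of all features), with a median log2 fold change of 0.03. *Thor*, which encodes the fly 4E-BP that keeps eIF4E from eIF4G, had 1784, 2079.9, 2177 and 1838 normalized counts in Control and 1659, 1541, 987 and 1199 in EmcOE. No sample overlapped, the EmcOE samples were widely spread, and the log2 fold change was -0.54 ± 0.14 (SE, edgeR adjusted p = 0.0385). *Thor* was called in 1 of 8 fits that left out a sample, that without EmcOE 1, and its log2 fold change ran from -0.67 to -0.42 over the 8. It also missed the adjusted p in a robust edgeR fit (0.0924). *orb2*, a regulator of synaptic translation required for long-term memory in the fly, had 3560.5, 3396, 3526 and 3757 in Control and 3888, 4215, 4339 and 4228 in EmcOE. Those groups did not overlap (0.23 ± 0.049, edgeR adjusted p = 0.0180), and *orb2* was called in 5 of 8 such fits. It missed the adjusted p without Control 1 (edgeR adjusted p = 0.0506), Control 2 (0.0587) or EmcOE 2 (0.0550), and the gene length correction lowered it to 0.13, under the fold limit. Of 9 mitochondrial translation factors tested, 0 were called by edgeR (against 8.68% of all features). An unadjusted p under 0.05 was found for 1 (11.1%, against 25.5% of all features).

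Among other parts of the translation machinery, 18 of 82 tested cytoplasmic ribosomal protein genes were downregulated (22%, against 5.12% of all features), with a median log2 fold change of -0.20, and 78 were lower (95.1%, against 47% of all features). Of 18 cytoplasmic aminoacyl-tRNA synthetase genes, 1 was downregulated (5.56%, against 5.12% of all features) and the median was -0.02. The translation factors, at -0.06, lay between these medians. Single samples were compared as well. In Control 4 the median deviation of the translation factors from each gene's mean was 0.01 and that of the ribosomal proteins was 0.21, and in EmcOE 3 the values were -0.01 and -0.25 (log2). The lowest sample for the translation factors was EmcOE 2, at -0.07, where 12 of the 44 genes had their lowest value and 0 had their highest. These profiles were not tested against each other.

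**Figure D5:**
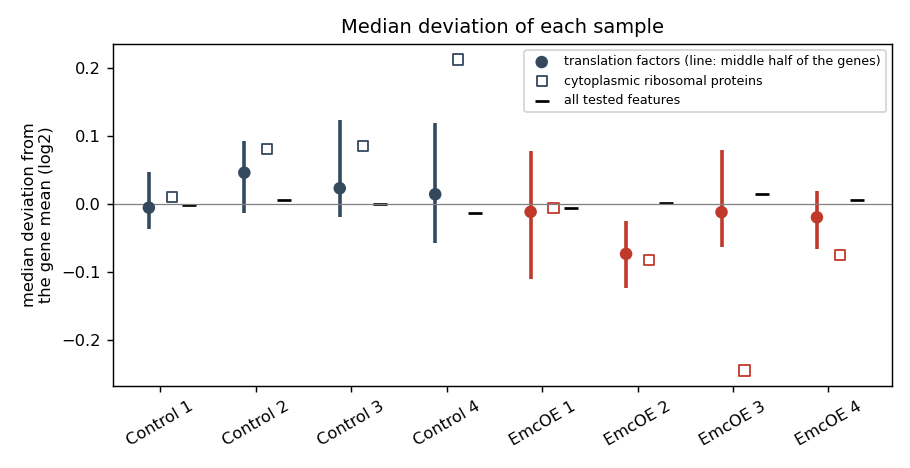
Median deviation of each sample from the gene means (vertical axis: log2) for the 44 translation factors (circles, lines from the 25th to the 75th percentile), 82 ribosomal protein genes (squares) and all tested features (dashes). Translation factors stay between -0.07 and 0.05, whereas ribosomal proteins reach 0.21 in Control 4 and -0.25 in EmcOE 3.

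Markers of neurons, glia, photoreceptors, fat body, muscle and hemocytes were all detected. The summed level of 5 glial markers was 2761 to 3086 CPM (counts scaled to library size) in EmcOE and 3276 to 3441 in Control, without overlap. *Gs2* among them was downregulated (against 5.12% of all features), and the other 4 had log2 fold changes of -0.19 to 0.04 with 0 called. Without *Gs2*, a choice made after its value was seen, the sums overlapped, at 1132 to 1338 CPM in EmcOE and 1314 to 1387 in Control. The summed level of 5 neuronal markers overlapped, at 4912 to 5613 in EmcOE and 4766 to 5272 in Control. For 5 hemocyte markers the sums were 805 to 933 in EmcOE and 825 to 984 in Control. Downregulated were 3 of them (against 5.12% of all features), *Hml*, *NimC1* and *Ppn*, with log2 fold changes from -0.69 to -0.48. *Col4a1* and *vkg* were at -0.02 and 0.03 and not called. For 7 fat body markers the sums were 2593 to 4644 in EmcOE and 1624 to 5331 in Control, and 3 were upregulated (against 3.57% of all features). These were *Fbp1*, *Fbp2* and *Lsp1alpha*, with log2 fold changes from 1.30 to 2.06. *Lsp2* was at 1.10 and not called, and *Yp1*, *Yp2* and *apolpp* were at 0.02, 0.02 and -0.10. Sums of 5 photoreceptor markers were 23470 to 25024 in EmcOE and 23948 to 28410 in Control. Those of 5 muscle markers were 687 to 1098 and 864 to 1402, and 0 were called in either list (against 8.68% of all features). The part of these cell types in the changes of the translation factors was not tested.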

How the data were processed

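The authors trimmed paired reads of poly(A) RNA, mapped them to BDGP6.32 with STAR 2.7.4a in 2 passes and counted pairs per gene with featureCounts 2.0.1, without using strand. The deposited values are raw counts per gene and sample, with exon lengths and coordinates. Pairs in exons shared by several genes are uncounted, and 21 of the 53 genes share exon sequence with another feature.

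Counts were tested with edgeR 4.0.16 in R 4.3.3 (TMM factors, glmQLFit and glmQLFTest, no covariate) over the 9788 features that averaged 20 or more normalized counts in EmcOE or Control. Both thresholds (Benjamini-Hochberg adjusted p 0.05, log2 fold change 0.2) and the count minimum follow the study's methods. The study itself tested its counts with DESeq2, which is among the alternatives here and called 6 translation factors downregulated. The 95% intervals reach 1.96 standard errors to each side, with standard errors derived from edgeR's F statistic. They are therefore somewhat narrow. That of *eEF5* excluded 0 (-0.27 to -0.02), although its unadjusted p was 0.0514 by edgeR's quasi-likelihood test. Per-sample values were given for genes with such an adjusted p, the 5 largest rises and falls, the 5 highest levels per length and, where tested, paralogs. Those of *eEF1gamma* and *eIF2D* were added after their values were seen. The members and lists were chosen with earlier results of these data known. Within groups, chi-square per degree of freedom between samples was 13.9 to 91.8, so that no pair of samples agreed within sampling noise. Alternatives were other scalings and count filters, DESeq2 1.42.0, a robust fit, no fold limit, a gene length correction, the replicate number as a block, and leaving out each sample.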

Additional observations from a re-analysis of the deposited data

Results flagged for a closer look

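In 88 groups of 4 values (44 genes, 2 groups each), 3 held a sample set apart from the other 3 by Dixon's criterion, and chance sets apart about 1 in 20 groups. *eIF5B* was at 1990.1 normalized counts in EmcOE 2, against 2266 in the nearest EmcOE sample. *eIF4B* was at 885 in EmcOE 1, against 700.2 in the nearest. *eIF4H1* was at 2804 in Control 3, against 2988 in the nearest. None of these 3 genes was called.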

How the results depend on the processing

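The 5 called translation factors kept their direction under all 19 alternatives. Scaling by total counts left 1 downregulated and moved the median log2 fold change to 0.0073, but moved the median of all features from 0.01 to 0.08, so that the distance between both stayed at -0.07. Without a count filter the median was -0.013 over 53 genes. The gene length correction left 0 upregulated, a median of -0.027 and 1 regulator called. A robust fit also called 1 regulator (*orb2*). Samples of the same number did not deviate together (correlations of deviations -0.49, 0.15, 0.03 and -0.21, best match with the own number in 2 of 8). With so few samples this cannot show whether they were prepared together. With the replicate block 4 were downregulated and 1 was upregulated, and 1 regulator (*orb2*) was called, as with DESeq2 and the block (*Thor* at adjusted p = 0.0571 with edgeR and 0.0696 with DESeq2), and *eIF3f1* and *eIF3d1* were at edgeR adjusted p = 0.0501 and 0.0644. DESeq2 called 6 downregulated (*eIF3e* and *eIF3f1* added), as did no count filter. With no fold limit 6 were downregulated as well, but with *eIF3f1* and *eIF3d1* added. Leaving out a sample gave 4 to 6 downregulated, 1 to 1 upregulated, 0 to 2 regulators and medians from -0.07 to -0.05. *eIF4E1*, at -0.0002, changed sign with total counts (0.066), upper quartile (0.0088), length correction (0.019) and without Control 1 (0.011), EmcOE 3 (0.0036) or EmcOE 4 (0.018), and was lowest without EmcOE 1 (-0.024). Without length scaling *eIF4E1* was 46.6% of its family and *eIF4G1* 75.5% of its pair in Control, against 71.1 and 81.0%. Depth limits the 9 genes under the filter, and unstranded counts limit genes with shared exons.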
